A study of Homo sapiens with 3 samples.

Results

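A set of 10 genes that mark epithelial junctions and the mesenchymal state was followed in MTAC-P cells, 5 of each kind, out of 26113 genes in the tables. The epithelial genes were CDH1, EPCAM, CLDN4, CLDN7 and OCLN, and the mesenchymal genes were CDH2, VIM, FN1, ZEB1 and CD44. They are textbook markers of the 2 states, chosen by name and not by a threshold on these values. The choice was made with earlier results of these data known. RefSeq accessions were matched to current symbols and the values of all entries of a symbol were added up. All 10 genes were found, and 5 of them had a mean of at least 1 FPKM over the libraries. FPKM counts fragments per kilobase of transcript, scaled to the mapped fragments of the library, so levels of different genes are compared here per transcript length.

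MTAC-P is a human lung cancer line that derives from PC9 and resists inhibitors of the EGFR tyrosine kinase. RNA-seq was done on 2 libraries labelled shBCAT1, which carry a short hairpin against BCAT1, and on 1 control library with a hairpin against luciferase. BCAT1 encodes the cytosolic branched-chain aminotransferase. All 3 libraries come from the same line in serum-containing medium with no drug treatment named in the labels. Whether the libraries labelled shBCAT1 1 and 2 share a hairpin or a culture is not stated. The only model is this line, and neither its clonality nor the efficiency of the hairpins is given.

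In epithelial sheets, neighbouring cells are held together by adherens junctions built on E-cadherin and are sealed by tight junctions built on claudins and occludin. During epithelial-mesenchymal transition, transcription factors of the ZEB, SNAI and TWIST families repress the junction genes, while N-cadherin, vimentin and fibronectin come up. In lung cancer with EGFR mutations this transition is a known companion of resistance to EGFR inhibitors.

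The targeted gene was lower in neither library labelled shBCAT1. BCAT1 stood at 1.05 FPKM (bounds 0.835 to 1.27) and 0.241 FPKM (0.158 to 0.325) in the libraries labelled shBCAT1 1 and 2, against 0.213 FPKM (0.129 to 0.297) in the control. Its bounds were above the control's in the library labelled shBCAT1 1 and overlapped them in the library labelled shBCAT1 2, so directions below hold between libraries as labelled. BCAT1 is a sum over 5 entries. Its log2(FPKM + 1) difference from the control was 0.40, and -0.01 with the highest entry alone. The deposited tables give no read totals. Epithelial keratins were abundant in every library but differed between the libraries labelled shBCAT1. KRT7 had 262 and 305 FPKM in the libraries labelled shBCAT1 1 and 2, against 320 FPKM in the control, and KRT19 had 87.7 and 109 FPKM, against 104 FPKM. KRT8 had 256 and 410 FPKM, against 295 FPKM in the control, and KRT18 had 175 and 262 FPKM, against 213 FPKM. The bounds of all 4 were below the control's in the library labelled shBCAT1 1. In the library labelled shBCAT1 2 those of KRT8 and KRT18 were above it, those of KRT7 below it and those of KRT19 overlapped it. Of the 3869 genes tested, 7.6% had bounds below the control's in the library labelled shBCAT1 1. In the library labelled shBCAT1 2, 7.65% had them below and 7.31% above. Bounds are narrow at keratin levels, 256 to 269 FPKM for KRT7 in the library labelled shBCAT1 1. Among 208 genes averaging 30 FPKM or more, 81.7% were lower in both libraries labelled shBCAT1. The part of level in the keratin values was not tested. Apart from the keratins, all lung markers followed but MUC1 were low. NKX2-1 reached at most 0.101 FPKM, NAPSA 0.224 FPKM and SFTPB 0.0513 FPKM. SFTPC, SFTPA1 and SCGB1A1 were listed at 0 in all 3 libraries. MUC1 had 2.49 and 1.93 FPKM in the libraries labelled shBCAT1 1 and 2, against 1.65 FPKM in the control, with overlapping bounds. Markers of other cell types were low. The 7 fibroblast genes summed to 0.259 and 0.214 FPKM in the libraries labelled shBCAT1 1 and 2 and to 0.105 FPKM in the control, most of it from COL1A1. The 5 endothelial genes summed to 0.221 and 0.12 FPKM, against 0.197 FPKM in the control. The 6 leukocyte genes summed to 3.75 and 3.82 FPKM, against 3.68 FPKM in the control. Most of this was CD68, a lysosomal protein not limited to leukocytes, while the leukocyte gene PTPRC was listed at 0 in all 3 libraries.

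The levels of the members ran in an order that was nearly the same in every library. CLDN4 was highest and CLDN7 next, with bounds that did not overlap in any library, and both lay at or above percentile 98.6 of all 26113 genes. EPCAM and CD44 followed, with bounds that overlapped each other in all 3 libraries. CDH1 came next, below EPCAM with bounds apart in all 3 libraries, and OCLN lay below CDH1 with bounds apart in all 3. The bounds of OCLN and FN1 overlapped in all 3 libraries, and so did those of FN1 and CDH2. ZEB1 and VIM were at or near 0. The 5 epithelial genes summed to 45.8 and 42.1 FPKM in the libraries labelled shBCAT1 1 and 2, against 59.6 FPKM in the control. The 5 mesenchymal genes summed to 2.92 and 4.34 FPKM, against 3.08 FPKM in the control, and to 0.383 and 0.545 FPKM, against 0.37 FPKM, once CD44 was left out. By these marker levels all 3 libraries had high epithelial claudin RNA beside little or no RNA of vimentin and ZEB1.

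**Figure D1:**
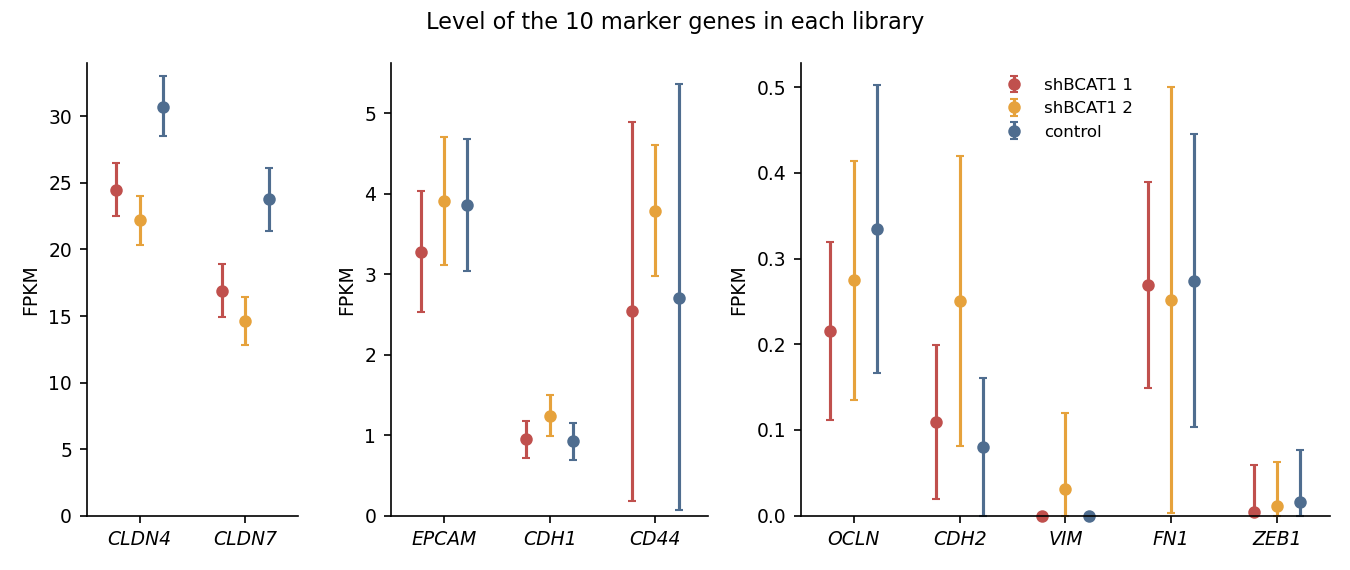
FPKM of the 10 marker genes in the libraries labelled shBCAT1 1 and 2 and in the control, in 3 panels with separate linear axes. Points are the deposited values summed per gene and bars run from the lower to the upper confidence bound. CLDN4 and CLDN7 lie below the control's bounds in both libraries labelled shBCAT1, while the bars of the other 8 genes overlap those of the control or start at 0.

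CLDN4 and CLDN7, 2 of the claudins of epithelial tight junctions, were lower in both libraries labelled shBCAT1. CLDN4 (chromosome 7, 73830863 to 73832693, hg38) had 24.5 FPKM (bounds 22.5 to 26.5) in the library labelled shBCAT1 1, with 22.2 FPKM (20.3 to 24) in the library labelled shBCAT1 2, against 30.7 FPKM (28.5 to 33) in the control. The mean of 23.3 ± 1.6 FPKM (SD, n = 2) in the libraries labelled shBCAT1 was 0.758 times the control. CLDN7 (chromosome 17, 7259903 to 7263193) had 16.9 FPKM (14.9 to 18.9) in the library labelled shBCAT1 1, with 14.6 FPKM (12.8 to 16.4) in the library labelled shBCAT1 2, against 23.8 FPKM (21.4 to 26.1) in the control. Its mean of 15.7 ± 1.7 FPKM (SD, n = 2) in the libraries labelled shBCAT1 was 0.662 times the control. For both claudins the bounds of the libraries labelled shBCAT1 overlapped each other and lay wholly below those of the control. These bounds cover counting error alone, and in bulk RNA fewer cells with a transcript and less of it per cell cannot be told apart.

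Neither claudin passed the test across genes. In log2(FPKM + 1), CLDN4 differed from the control by -0.39 ± 0.19 (SE; limma adjusted p = 0.796) and CLDN7 by -0.57 ± 0.20 (SE; limma adjusted p = 0.796). With quantile normalization CLDN4 was no longer lower in the library labelled shBCAT1 1, where its log2(FPKM + 1) difference was 0.01, while CLDN7 remained lower in both, at -0.18 and -0.45. Genes of similar level and length were also mostly lower. Of 116 genes with a mean of 10 to 30 FPKM and a transcript of 1000 to 2000 bases, 80 (69%) were lower in both libraries. The median difference of the 116 was -0.19. Of these 116 genes, 18 (15.5%) had bounds below those of the control in both libraries. The part of level and length in the claudin values was not tested.

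CLDN7 has 3 transcripts in the deposited tables, and most of its value lay on the transcript with the upstream start, NM_001185022. That transcript held 82.4% and 88.8% of CLDN7 in the libraries labelled shBCAT1 1 and 2 and 88.6% in the control. Its level was 13.9 FPKM (12.1 to 15.8) and 12.9 FPKM (11.3 to 14.6), against 21.1 FPKM (18.8 to 23.3) in the control. NM_001307, which starts further downstream, had 2.98 FPKM (2.16 to 3.8) and 1.63 FPKM (1.03 to 2.22), against 2.71 FPKM (1.9 to 3.51) in the control. The bounds of the upstream transcript lay below the control's in both libraries, whereas NM_001307 overlapped the control's bounds in both. The DNA before the upstream start is shown because it precedes the transcript that carries most of CLDN7. It covers chr17:7263214-7263463 (minus strand, RefSeq on GRCh38.p14), the 250 bases before the RefSeq start. Capitals mark the only match to the general E-box CANNTG, 170 bases before the start, a form that takes in the sites of ZEB, SNAI and TWIST factors.
CLDN7 promoter: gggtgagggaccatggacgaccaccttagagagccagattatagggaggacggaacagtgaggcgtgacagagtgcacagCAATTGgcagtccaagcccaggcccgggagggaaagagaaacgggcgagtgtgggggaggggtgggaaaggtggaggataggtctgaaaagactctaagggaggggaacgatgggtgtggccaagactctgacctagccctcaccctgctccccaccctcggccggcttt
CANNTG was searched on both strands and occurs in 61.8% of 35116 promoter windows of this length. The form CAGGTG, which includes its reverse complement CACCTG and is nested in CANNTG, occurs in 17.5% of windows and has no match in the CLDN7 window.

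The adhesion genes EPCAM and CDH1 had bounds that overlapped the control's in both libraries. EPCAM (chromosome 2, 47369148 to 47387028), a homophilic adhesion molecule of epithelial cells, had 3.28 FPKM (2.53 to 4.03) and 3.91 FPKM (3.11 to 4.7) in the libraries labelled shBCAT1 1 and 2, against 3.86 FPKM (3.04 to 4.68) in the control. The log2(FPKM + 1) difference was -0.09 ± 0.21 (SE; limma adjusted p = 0.931). It was -0.18 in the library labelled shBCAT1 1 but 0.01 in the library labelled shBCAT1 2, so EPCAM had no common direction. CDH1 (chromosome 16, 68737292 to 68835541), which encodes E-cadherin, had 0.951 FPKM (0.721 to 1.18) and 1.24 FPKM (0.987 to 1.5), against 0.923 FPKM (0.692 to 1.15) in the control. CDH1 was thus 1.03 and 1.35 times the control. Its log2(FPKM + 1) difference was 0.12 ± 0.18 (SE; limma adjusted p = 0.892), positive in both libraries. This scale compresses differences at such a level, and with a pseudocount of 0.1 the difference was 0.22. These values rest on the equivalent of 68 and 94 fragments for CDH1, against 64 in the control, read from the bounds as the square of value over SD. The CDH1 transcript has 4889 bases, and genes tested with at least 4000 bases had a median difference of 0.08.

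OCLN (chromosome 5, 69492292 to 69558104), the tight-junction protein occludin, was low. It had 0.216 FPKM (0.112 to 0.319) and 0.275 FPKM (0.135 to 0.414) in the libraries labelled shBCAT1 1 and 2, against 0.335 FPKM (0.167 to 0.503) in the control. Both values were below the control's, with bounds that overlapped it. The log2(FPKM + 1) difference was -0.10 ± 0.09 (SE; limma adjusted p = 0.866 in the fit without a filter on level). The value lay on different transcripts in different libraries, and OCLN has a partial genomic copy on the same chromosome, so it is uncertain.

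CD44, the hyaluronan receptor, was the only mesenchymal marker with a mean above 1 FPKM. CD44 (chromosome 11, 35138870 to 35232402) had 2.54 FPKM (0.18 to 4.89) in the library labelled shBCAT1 1, with 3.79 FPKM (2.98 to 4.6) in the library labelled shBCAT1 2, against 2.71 FPKM (0.0681 to 5.36) in the control. The bounds overlapped among all 3 libraries. The log2(FPKM + 1) difference was 0.15 ± 0.27 (SE; limma adjusted p = 0.909). It was -0.07 in the library labelled shBCAT1 1 but 0.37 in the library labelled shBCAT1 2. The value in the library labelled shBCAT1 1 turned to 0.05 under median-of-ratios scaling and to 0.06 under quantile normalization.

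CD44 is better known for its splicing than for its level. Epithelial cells, through the splicing factors ESRP1 and ESRP2, keep a block of variable exons in the extracellular stem, and mesenchymal cells tend to skip it and make the standard form. Of 8 CD44 transcripts in the deposited tables, 4 hold variable exons, by their match to GENCODE release 29. These 4 summed to 1.92 FPKM (0.958 to 2.88) and 3.49 FPKM (2.71 to 4.27) in the libraries labelled shBCAT1 1 and 2, against 2.21 FPKM (0 to 4.84) in the control. The other 4 summed to 0.618 FPKM (0 to 2.77) and 0.3 FPKM (0.0848 to 0.514), against 0.506 FPKM (0.258 to 0.753) in the control. They include, beside the standard form, a short transcript of 484 bases. It had 0.328 FPKM (0 to 0.941) and 0.179 FPKM (0.0381 to 0.321) in the libraries labelled shBCAT1 1 and 2, against 1.17e-07 FPKM in the control. Transcripts with variable exons thus held 75.6% and 92.1% of CD44 in the libraries labelled shBCAT1 1 and 2 and 81.4% in the control. The libraries labelled shBCAT1 lay on either side of the control, and no test was made of the shares.

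These CD44 junctions are printed because the forms differ in the exon joined to the constant exon that ends at 35190065. Each line gives 20 bases on either side of the junction, as RNA-sense DNA from GENCODE release 29 on hg38, with variable exons in capitals.
NM_000610, constant exon to v2: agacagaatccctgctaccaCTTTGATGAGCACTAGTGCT
NM_001001389, constant exon to v3: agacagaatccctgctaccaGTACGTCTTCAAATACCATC
NM_001001390, constant exon to v8: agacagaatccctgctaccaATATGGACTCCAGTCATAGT
NM_001001391, constant exon to constant exon: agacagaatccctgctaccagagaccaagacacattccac
The forms with variable exons share the exit from exon v10.
v10 to constant exon: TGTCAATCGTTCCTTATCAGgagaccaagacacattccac
The block from v3 to v10 holds 1014 bases, and the block from v8 to v10 holds 396 bases. The matched transcripts also differ outside these blocks. The forms from v3 and from v8 have 2369 and 2292 bases in all, against 4589 for the standard form. The printed junctions are therefore not their only difference.

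The form from v3 to v10, NM_001001389, had the highest value of the CD44 transcripts in every library. It had 1.4 FPKM (1.1 to 1.69) and 3.01 FPKM (2.4 to 3.62) in the libraries labelled shBCAT1 1 and 2, against 1.53 FPKM (0 to 3.27) in the control. The libraries labelled shBCAT1 did not overlap each other, and the control's bounds took in both. The form from v8 to v10, NM_001001390, had 0.52 FPKM (0 to 1.43) and 0.257 FPKM (0.0441 to 0.47), against 0.294 FPKM (0 to 2.26) in the control. The standard form, NM_001001391, had 0.148 FPKM (0 to 1.68) in the library labelled shBCAT1 1, 1.27e-05 FPKM (upper bound 0.0278) in the library labelled shBCAT1 2, and 0.461 FPKM (0.236 to 0.686) in the control. Its bounds overlapped the control's in the library labelled shBCAT1 1 and were below them in the library labelled shBCAT1 2. The forms share most of their exons, and the lower bound was 0 for several of them.

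**Figure D2:**
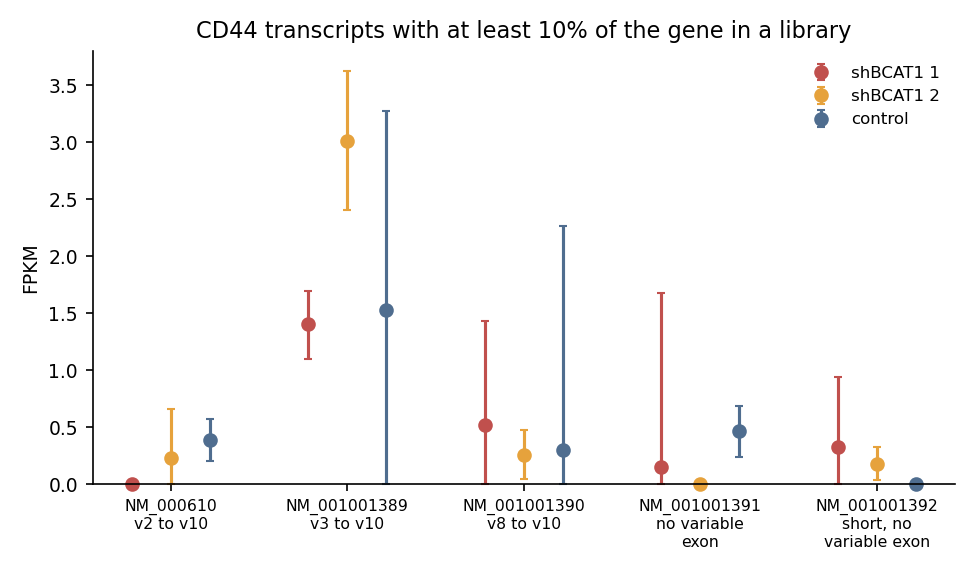
FPKM of the CD44 transcripts that held at least 10% of the gene in any library, with the variable exons each contains, in the libraries labelled shBCAT1 1 and 2 and in the control. Points are deposited values and bars run between the deposited bounds. The form from v3 to v10 is highest in all 3 libraries, with 3.01 FPKM in the library labelled shBCAT1 2 above 1.4 FPKM in the library labelled shBCAT1 1.

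The splicing factors themselves were measured in all 3 libraries. ESRP1 had 0.627 and 1.09 FPKM in the libraries labelled shBCAT1 1 and 2, against 0.899 FPKM in the control. ESRP2 had 0.963 and 0.879 FPKM, against 0.94 FPKM in the control. Their bounds overlapped the control's in both libraries. CTNND1, which encodes the cadherin-binding catenin p120 and is spliced differently in epithelial and mesenchymal cells, had 1.05 and 1.48 FPKM, against 1.05 FPKM in the control. Of its 22 transcripts NM_001085468 was the leading one in the control, with 54.9% of the gene. It held 77.4% in the library labelled shBCAT1 1 but 28.8% in the library labelled shBCAT1 2, where NM_001085465 held 33.6%. The bounds of NM_001085468 were 0.596 to 1.02 and 0.248 to 0.604 FPKM in the libraries labelled shBCAT1 1 and 2. Both overlapped the control's, 0.378 to 0.775 FPKM. The bounds of NM_001085465 were 0.307 to 0.685 FPKM in the library labelled shBCAT1 2. They lay above those of 0 to 0.0231 FPKM in the library labelled shBCAT1 1 and 0 to 0.0238 FPKM in the control. The CTNND1 transcripts were not assigned to an epithelial or mesenchymal form, and no test was made of their shares. FGFR2, whose alternative exons also differ between epithelial and mesenchymal cells, could not be read. It had 0.00125 and 0.00474 FPKM in the libraries labelled shBCAT1 and was listed at 0 in the control.

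The other mesenchymal markers were near or below the limit of these libraries. VIM (chromosome 10, 17228259 to 17237593), the intermediate filament of mesenchymal cells, was listed at 0 in the library labelled shBCAT1 1, at 0.0316 FPKM (0 to 0.12) in the library labelled shBCAT1 2 and at 0 in the control. The value in the library labelled shBCAT1 2 rests on the equivalent of 0.513 fragments. Its antisense gene VIM-AS1 was listed at 0 in all 3 libraries as well. ZEB1 (chromosome 10, 31319172 to 31529814), a repressor of CDH1, had 0.00443 FPKM (0 to 0.0587) and 0.0109 FPKM (0 to 0.0622), against 0.0155 FPKM (0 to 0.0763) in the control, each under the equivalent of 1 fragment. No direction can be read for VIM or ZEB1 at this depth.

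CDH2 (chromosome 18, 27950963 to 28177446), N-cadherin, had 0.109 FPKM (0.0194 to 0.199) and 0.251 FPKM (0.0814 to 0.42) in the libraries labelled shBCAT1 1 and 2, against 0.0805 FPKM (0 to 0.161) in the control. Both values were above the control's, with bounds that overlapped it. The log2(FPKM + 1) difference was 0.12 ± 0.11 (SE; limma adjusted p = 0.866 without a filter), and CDH1 stayed 8.7 and 4.96 times as high as CDH2 in the libraries labelled shBCAT1 1 and 2, against 11.5 times in the control. These CDH2 values rest on the equivalent of 5.92 and 8.77 fragments, against 3.98 in the control.

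FN1 (chromosome 2, 215360440 to 215436070), the matrix protein fibronectin, was nearly level. It had 0.269 FPKM (0.149 to 0.389) and 0.252 FPKM (0.00329 to 0.5), against 0.274 FPKM (0.103 to 0.445) in the control, a difference of -0.02 ± 0.08 (SE; limma adjusted p = 0.972 without a filter). Of 10 FN1 transcripts a different one led in each library: NM_212478 held 100% in the library labelled shBCAT1 1, NM_001306131 held 92% in the library labelled shBCAT1 2 and NM_212474 held 75% in the control. The bounds of each leading transcript lay above its bounds in the other libraries. Those of NM_212478 were 0.175 to 0.363 FPKM in the library labelled shBCAT1 1, against 0 to 0.0163 FPKM in the control. The sum over transcripts differed less between libraries than any of these transcripts.

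**Figure D3:**
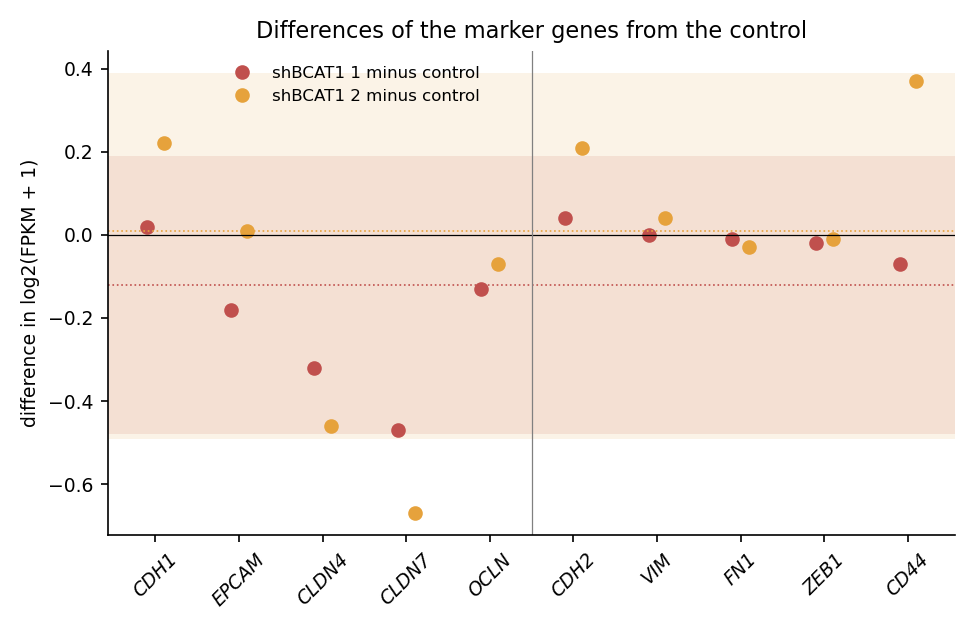
Difference in log2(FPKM + 1) of each marker gene for the libraries labelled shBCAT1 1 and 2 relative to the control, epithelial genes left of the line and mesenchymal genes right of it. Bands run from percentile 10 to 90 of all 3869 genes tested (-0.48 to 0.19 and -0.49 to 0.39), with dotted lines at their medians. Of the 5 members tested, CLDN7 in the library labelled shBCAT1 2, at -0.67, is the only point outside its band. OCLN, CDH2, VIM, FN1 and ZEB1 are below the minimum of 1 FPKM and are not among the genes that make the bands. At their levels this scale compresses differences, so their place inside the bands is not informative. CDH2 at 3.12 times the control in the library labelled shBCAT1 2 gives 0.21.

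Counts over the members stand here beside those over all genes. By limma at an adjusted p of 0.05, 0 of the 5 members tested were called, beside 0.362% of 3869 genes called lower (14 genes) and 0% called higher. At an unadjusted p under 0.05, CLDN7 was the single member, beside 5.01% of genes lower and 0.569% higher. Of the 5 members tested, 2 (CLDN4 and CLDN7) were lower in both libraries, beside 43.7% of all genes, and 1 (CDH1) was higher in both, beside 25.6%. Over all genes these shares became 36.8% lower and 35.9% higher under median-of-ratios scaling, and 32.2% and 38.3% under quantile normalization. Over all 10 members with no filter on level, 5 were lower in both libraries (the 2 claudins, OCLN, FN1 and ZEB1, the last at under 1 fragment), beside 35.2% of 16197 genes, and 2 were higher in both (CDH1 and CDH2), beside 27.4%. Bounds wholly below the control's in both libraries were found for 2 of the 5 members tested, CLDN4 and CLDN7, beside 4.19% of all genes. Taken by library, these were also the 2 members with lower bounds when the library labelled shBCAT1 1 was taken alone (7.6% of all genes) and likewise for the library labelled shBCAT1 2 (7.65%). Of the 5 members, 0 had bounds above the control's in the library labelled shBCAT1 1 (1.6% of all genes), in the library labelled shBCAT1 2 (7.31%) or in both (1.21%). Over either library and direction this makes 2 of 5 members, beside 18.6% of all genes. The median difference of the 5 tested members was -0.09, beside -0.06 for all genes tested. Both libraries share the single control, so their directions are not independent.

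Other junction genes lay on both sides of the control. Of 22 genes of adherens junctions and desmosomes, 9 had a mean of at least 1 FPKM. Of these, 4 were lower and 3 higher in both libraries, beside 43.7% and 25.6% of all genes tested. Their median was 0.04. Limma called 0 of them, beside 0.362% of all genes called lower and 0% higher. CTNNB1, beta-catenin, had 2.48 and 2.61 FPKM in the libraries labelled shBCAT1 1 and 2, against 3.18 FPKM in the control. Its bounds overlapped the control's in both libraries and ran from 0.401 to 4.82 FPKM in the library labelled shBCAT1 2. NECTIN2, a nectin of adherens junctions, had 4.54 and 4.21 FPKM, against 5.38 FPKM, and PERP, a desmosomal tetraspan protein, had 1.04 and 1.25 FPKM, against 1.44 FPKM. The cornified envelope plakins PPL and EVPL were on the other side. PPL had 2.06 and 3.21 FPKM, against 1.67 FPKM in the control, and EVPL had 2.06 and 2.76 FPKM, against 1.66 FPKM. Their bounds were above the control's in the library labelled shBCAT1 2 and overlapped it in the library labelled shBCAT1 1. Over all genes tested, 7.31% had bounds above the control's in the library labelled shBCAT1 2. JUP, plakoglobin, was the most abundant of the list, at 6.71 and 6.34 FPKM, against 5.81 FPKM. The desmosomal gene DSP, under the minimum and named after its values were seen, had 0.555 and 0.871 FPKM, against 0.466 FPKM in the control. Its bounds were above the control's only in the library labelled shBCAT1 2.

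Tight-junction and polarity genes other than the members were also split. Of 24 genes, 7 had a mean of at least 1 FPKM. Of these, 3 were lower and 2 higher in both libraries, beside 43.7% and 25.6% of all genes tested. Their median was -0.03. Limma called 0 of them, beside 0.362% of all genes called lower and 0% higher. The junctional adhesion molecule F11R had 2 and 1.94 FPKM in the libraries labelled shBCAT1 1 and 2, against 2.23 FPKM in the control. MARVELD3, a relative of occludin, had 1.41 and 1.07 FPKM, against 0.834 FPKM. CLDN3, the remaining claudin above the minimum, had 1.45 and 1.2 FPKM, against 1.05 FPKM in the control, so both of its values were above the control's, with overlapping bounds. CLDN1, with a mean just under the minimum and named after its values were seen, had 0.973 and 0.319 FPKM, against 1.15 FPKM in the control. Its bounds were below the control's in the library labelled shBCAT1 2 and overlapped them in the library labelled shBCAT1 1. The polarity genes CRB3, LLGL2 and SCRIB differed from the control by -0.12, -0.05 and -0.03 on the log2(FPKM + 1) scale. LLGL2 and SCRIB turned positive with median-of-ratios scaling, at 0.01 and 0.02.

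Of 20 epithelial regulators and surface genes, 9 were measured above the minimum. Of these, 3 were lower and 1 higher in both libraries, beside 43.7% and 25.6% of all genes tested. Their median was -0.06. Limma called 0 of them, beside 0.362% of all genes called lower and 0% higher. AP1M2, the epithelial subunit of a clathrin adaptor, had 6.92 and 6.78 FPKM in the libraries labelled shBCAT1 1 and 2, against 8.82 FPKM in the control. Its bounds overlapped the control's in both libraries and ran from 0 to 15.2 FPKM in the library labelled shBCAT1 2. MAL2, which acts in transcytosis, had 2.96 and 2.73 FPKM, against 3.69 FPKM. The serine protease PRSS8 had 1.37 and 1.51 FPKM, against 1.22 FPKM. SPINT2, a protease inhibitor and the most abundant of the list, had 18.5 and 23.4 FPKM, against 22.2 FPKM. GRHL2, OVOL1 and OVOL2, transcription factors that maintain the epithelial state, stayed below 1 FPKM in all 3 libraries.

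Many mesenchymal genes beyond the members were at or near 0. Of 10 transcription factors of the transition, only TCF3 had a mean of at least 1 FPKM, with 2.54 and 3.42 FPKM in the libraries labelled shBCAT1 1 and 2, against 2.77 FPKM in the control. TWIST1, ZEB2, FOXC2 and PRRX1 were listed at 0 in all 3 libraries. SNAI1 was listed at 0 in the library labelled shBCAT1 1, and had 0.122 FPKM in the library labelled shBCAT1 2 and 0.177 FPKM in the control. TWIST2 had 0.214 and 0.771 FPKM, against 0.179 FPKM in the control, and the bounds of both factors overlapped the control's in each library. Of 33 genes of the mesenchymal cytoskeleton, matrix and receptors, 10 were listed at 0 in all 3 libraries, among them COL1A2, COL3A1, SPARC, DCN and CDH11. Below 0.1 FPKM were 17 and 17 of them in the libraries labelled shBCAT1 1 and 2, against 18 in the control. COL5A1 had 0.149 and 0.393 FPKM in the libraries labelled shBCAT1 1 and 2, against 0.0727 FPKM in the control, and COL6A1 had 0.241 and 0.653 FPKM, against 0.265 FPKM. For both collagens, named after their values were seen, the bounds were above the control's in the library labelled shBCAT1 2 and overlapped them in the library labelled shBCAT1 1. Of the 33, 6 had a mean of at least 1 FPKM. Of these, 3 were lower and 1 higher in both libraries, beside 43.7% and 25.6% of all genes tested. Their median was -0.17. Limma called 0 of them, beside 0.362% of all genes called lower and 0% higher.

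SERPINE2, a protease inhibitor, had 4.2 and 2.82 FPKM in the libraries labelled shBCAT1 1 and 2, against 4.53 FPKM in the control. Its bounds were below the control's only in the library labelled shBCAT1 2, where 7.65% of all genes tested had them below. The contractile genes TPM2 and MYL9 had 10.4 and 11.2 FPKM, against 13.2 FPKM, and 0.852 and 1.54 FPKM, against 1.84 FPKM. AXL, a receptor kinase linked to EGFR inhibitor resistance, had 0.464 and 1.04 FPKM, against 0.547 FPKM in the control. It is named after its values were seen, with bounds above the control's only in the library labelled shBCAT1 2. AXL, DSP, COL5A1 and COL6A1 lie under the minimum, so the 7.31% of genes tested with higher bounds there does not cover them.

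**Figure D4:**
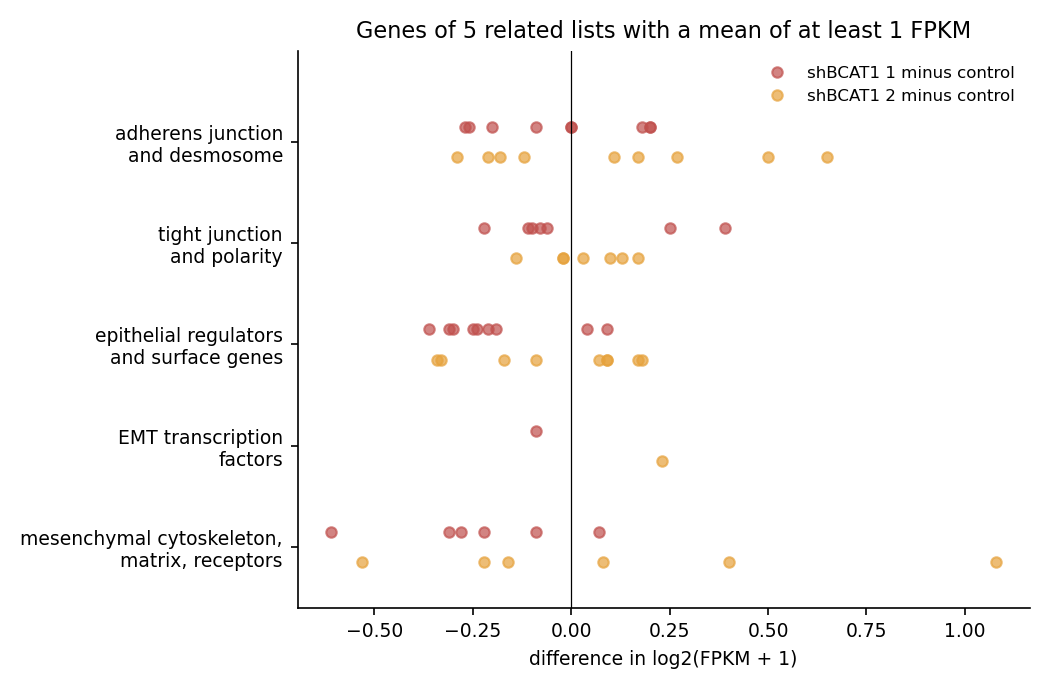
Difference in log2(FPKM + 1) from the control for the genes of 5 related lists with a mean of at least 1 FPKM, 1 point per gene and library. The library labelled shBCAT1 1 is drawn above the library labelled shBCAT1 2 within each list, and points fall on either side of 0 in every list. The EMT transcription factors hold TCF3 alone, at 2.54 and 3.42 FPKM in the libraries labelled shBCAT1 1 and 2, against 2.77 FPKM in the control.

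By the distance between the 2 differences from the control, the protein-coding genes most like CDH1 among 3629 were MIDN (0.03 and 0.23) and PGGHG (0.01 and 0.22), beside 0.02 and 0.22 for CDH1. Both differences share the 1 control, and such likeness is a description.

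Annotation limits some of these values. Strand handling is not stated in the labels, and 7 of the 10 members overlap a gene annotated on the opposite strand, so reads of the pair could not be told apart there. CLDN7 overlaps the end of ELP5, which had 1.4 and 1.16 FPKM in the libraries labelled shBCAT1 1 and 2, against 1.47 FPKM in the control.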

How the data were processed

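RNA-seq of 2 libraries labelled shBCAT1 and 1 control library was used. The submitters' processing notes name Trim Galore, TopHat, Cufflinks and build hg38. Their versions and settings, the annotation and the handling of strand were not given in the sources used here. Values are FPKM, deposited by the authors as 1 table per library, with a lower and an upper bound per RefSeq transcript and locus, 56882 entries per table.

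Here, 49281 of 50337 accessions were named from RefSeq (GRCh38.p14) and 625 from GENCODE release 29, and FPKM was summed per symbol. The 326 genes with a status other than OK were left out of the fits. Bounds were taken as 2 SDs and combined as a root sum of squares, which treats the transcripts of a gene as independent. Relative SDs had medians of 13.61% and 12.5% for the libraries labelled shBCAT1 1 and 2, against 13.21% for the control. Read totals are unknown, and values listed at 0 carry no bounds of their own, hence no floor. Loci count from 0 in the tables and are printed from 1.

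The fit was limma 3.58.1 (R 4.3.3) on log2(FPKM + 1), two-sided, with an intensity trend. P-values were adjusted by Benjamini-Hochberg over the 3869 genes whose mean reached 1 FPKM. Members below this came from the same fit without the filter (16197 genes). The control has 1 library, so its spread is assumed to be that of the libraries labelled shBCAT1. The labels do not say that these are separate cultures, so p-values measure only a spread that may be technical. A difference on the log2(FPKM + 1) scale understates the change of low genes. Tables and plots were made in Python 3.11.15 (numpy 2.4.6, pandas 2.3.3, matplotlib 3.10.9).

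The members and lists were chosen with earlier results of these data known. Named genes are the members, BCAT1, per related list and direction up to 3 genes whose differences shared a sign, ranked by the lesser of the pair, the most abundant gene of each list, and the 2 genes nearest to CDH1. Genes nearest to VIM, also in the rule, are not given because its differences rest on under 1 fragment. Values of 2 genes that this rule names are not reported here. The strata of level and length, the sums of CD44 transcripts and the genes named only for being listed at 0 or below 1 FPKM were chosen after the data were seen. Alternatives were other pseudocounts, minima, scalings, ways of summing entries, the fit with no trend, and leaving out each library labelled shBCAT1.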

Additional observations from a re-analysis of the deposited data

How the results depend on the processing

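The count of genes called lower by limma was 14 as reported, 8 at a minimum mean of 5 FPKM, and 0 with no filter and with entries kept apart. The count called higher was 0, and 1 with a pseudocount of 0.1. It was 0 under the other alternatives. Of the members tested, the number lower in both libraries was 2, and 1 with quantile normalization, where CLDN4 dropped out. It was 4 at a minimum mean of 0.1 FPKM, where OCLN and FN1 came in. The number higher in both was 1, 2 with median-of-ratios scaling, quantile normalization or a minimum of 0.1 FPKM, and 0 at a minimum of 5 FPKM.

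Over 33 named genes, 13 of 297 alternative differences had the opposite sign at 2 decimals, 8 under another setting and 5 where 1 library labelled shBCAT1 was left out. The other 284 did not. With quantile normalization EPCAM became 0.02, SCRIB 0.05 and SPINT2 0.19. With median-of-ratios scaling LLGL2 became 0.01 and SCRIB 0.02. With the highest entry of each gene alone FN1 became 0.17, BCAT1 -0.01 and TPM2 0.01. The cause was not tested.

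Leaving out each library labelled shBCAT1 gave values with no test, from -0.46 to -0.32 for CLDN4, from -0.67 to -0.47 for CLDN7, from -0.18 to 0.01 for EPCAM and from -0.07 to 0.37 for CD44. The sign also turned for SCRIB (-0.10 to 0.03), SPINT2 (-0.25 to 0.07) and TCF3 (-0.09 to 0.23). The control cannot be left out. No paired analysis was possible because the control has 1 library and no number in its label. Members below 1 FPKM rest on few fragments, and depth limits what can be read from them.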
